A study of Oryza sativa Indica Group with 8 samples.

Results

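The subject is the drought response of roots of IR20, a rice cultivar that the labels describe as shallow-rooted, semi-dwarf and susceptible to drought. Of the 8 arrays, 4 belong to it: 2 from stressed IR20 roots and 2 from control IR20 roots, each called a biological replicate. Stressed plants stopped receiving water 40 days after sowing, and control plants were not put under that stress. Plants of both groups grew singly in pipes 1 m long and 15 cm wide in a greenhouse, and the stress was judged by the rolling and drying of leaves. The comparison took all 57258 probe sets other than the array's own controls, of 57381 on the array, and 17905 genes had a probe set of their own, 2457 of them with a name. The other 4 arrays, 2 from stressed and 2 from control roots of Nootripathu, a deep-rooted and low-yielding landrace treated in the same way, are used below to ask where IR20 differed. The labels do not say whether a replicate was 1 plant or a pool. Only the control roots were washed (in de-ionised water); soil was tapped off the stressed ones, so handling and drought cannot be told apart. The time from the last watering to harvest is not given.

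When soil dries, roots make abscisic acid (ABA), which binds receptors that switch off protein phosphatases of type 2C (PP2C) and thereby free SnRK2 kinases, called SAPK in rice, to phosphorylate factors that switch on protective genes. Those genes encode late embryogenesis abundant (LEA) proteins and dehydrins, chaperones, and enzymes that make compatible solutes such as proline. Growth by cell division and by wall loosening depends on turgor, and dissolved nutrients reach the root with water, so division, wall and uptake genes are often followed beside the protective ones. In whole roots, fewer cells of a type and less RNA per cell cannot be told apart.

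Signals are the authors' log2 values, so a difference of 1 is a 2-fold change. Differences are stressed minus control, with the standard error (SE) of the fit, n = 2 arrays in each group, and adjusted p from limma. "Rose" and "fell" mark genes with an adjusted p under 0.05. Of all named genes 26.5% rose and 37.9% fell, and every count of a list or family stands against these shares. The gene values below are listed in the order replicate 1, replicate 2.

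The arrays of IR20 were checked before the comparison. The root marker LSI1, which takes up silicon, had 13.72 and 13.77 in stressed roots and 14.55 and 14.50 in control roots. Of the 8 root markers 7 fell (87.5%, against 37.9% of all named genes) and 1 rose, with a median difference of −2.04. Their median signal was 9.18 and 9.25 in control roots. The 8 root markers summed to linear signals of 14121 and 14624 in stressed roots, against 38887 and 37428 in control roots. LSI1 and a second silicon carrier, LSI2, made up most of these sums. The 15 markers of photosynthetic tissue summed to 1443 and 1672 in stressed roots, against 1168 and 1241 in control roots. Of these 4 rose and 1 fell. RBCS1 lay near the array floor at 3.01 and 3.21 in stressed roots and 2.98 and 3.13 in control roots. PSAG had 8.68 and 8.60 in stressed and 6.54 and 6.60 in control roots, and PETE fell (−3.24). The 9 seed markers summed to 798 and 1035 in stressed roots, against 1452 and 1533 in control roots. Poly-A transcripts added before labelling had a 3′ signal above their 5′ signal by 5.32 on stressed replicate 2, against 2.17 on stressed replicate 1 and 2.44 and 2.58 on the control arrays. The signal for 25S ribosomal RNA was 13.53 and 10.86 on the stressed arrays, against 9.83 and 8.67 on the control arrays. The stressed pair also differed more among itself (SD of the difference between its arrays 0.367 over all probe sets) than the control pair (0.215). Counts are therefore given also without stressed replicate 2 for some groups. Counts printed without such a version were in several groups not the same without that array. The median of the root markers was −2.01 without it. The part of labelling, of residual ribosomal RNA and of handling in the results was not tested.

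Between stressed and control IR20 roots 38.1% of the probe sets measured differed, and falls outnumbered rises among the deepest changes. Of 57258 probe sets, 12000 rose (21.0%) and 9807 fell (17.1%). Both stressed arrays lay on 1 side of both control arrays in all 21807 of these, and in 66.7% of all probe sets. Groups that do not overlap, where mentioned below, therefore add nothing to a pass. At 2-fold or more the falls led, with 3700 rises (6.46%) and 5013 falls (8.76%). At 8-fold there were 280 rises (0.489%) and 828 falls (1.45%), and at 32-fold 35 rises (0.0611%) and 150 falls (0.262%). The probe sets that fell at least 8-fold had a median signal of 5.44 in stressed roots and 9.69 in control roots. Those that rose at least 8-fold had a median of 10.49 in stressed roots and 6.42 in control roots. Without stressed replicate 2, 11589 rose (20.2%) and 10020 fell (17.5%), and 18740 probe sets passed in the same direction with and without it. Of the 3700 rises and 5013 falls of at least 2-fold, 3675 and 4968 passed the same way without that array. A second scaling, called spike-in scaling, made the 3′ signals of those added transcripts equal between arrays. These were 11.09 and 10.51 on the stressed arrays and 10.15 and 10.23 on the control arrays. It moved the median difference of all probe sets to −0.51, against 0.10 as deposited, and left 2050 rises and 14721 falls. The median of all 17905 genes was 0.00 and that of the named genes −0.11, and of these 26.5% rose and 37.9% fell.

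**Figure D1:**
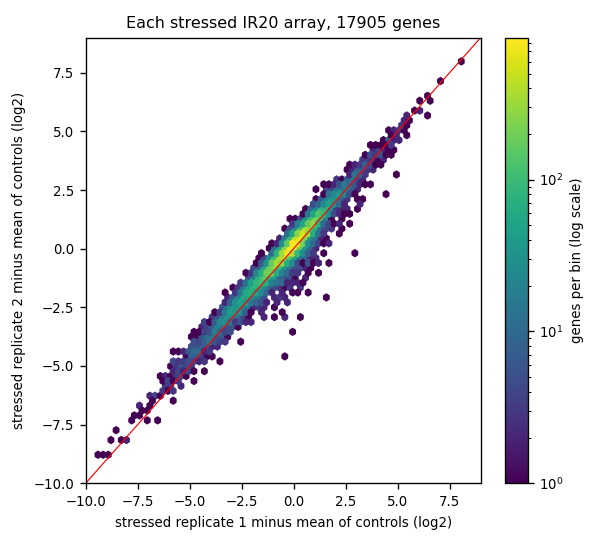
Each stressed IR20 array minus the mean of the control IR20 arrays (log2) for 17905 genes, with replicate 1 on the horizontal and replicate 2 on the vertical axis, bins coloured by the number of genes and the red line marking equal differences. Most genes lie along the line over the whole range, and a set of genes below it is lower on replicate 2 than on replicate 1.

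The largest rises belonged to genes without a name. LOC4331521 had signals of 13.75 and 13.67 in stressed roots and 5.42 and 5.95 in control roots, a difference of 8.02 ± 0.27 SE (adjusted p = 3.53e-07). LOC4325072 had 12.44 and 12.48 in stressed roots and 5.87 and 6.08 in control roots. The groups did not overlap in either gene, and the control arrays were the low ones. Of the 5 genes without a name that rose most, the others were LOC4324064 (7.14, whose 2 probe sets passed in opposite directions and averaged 0.03), LOC4349989 (6.41) and LOC4347709 (6.14). On the probe sets used, the deepest falls were of LOC4330226, with 3.65 and 4.41 in stressed roots and 13.09 and 13.03 in control roots, and LOC4351693, with 3.37 and 3.77 in stressed roots and 12.58 and 12.53 in control roots. Both stressed arrays were below 5 for these genes, and both control arrays were high. Over its 2 probe sets LOC4330226 averaged −5.16.

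**Figure D2:**
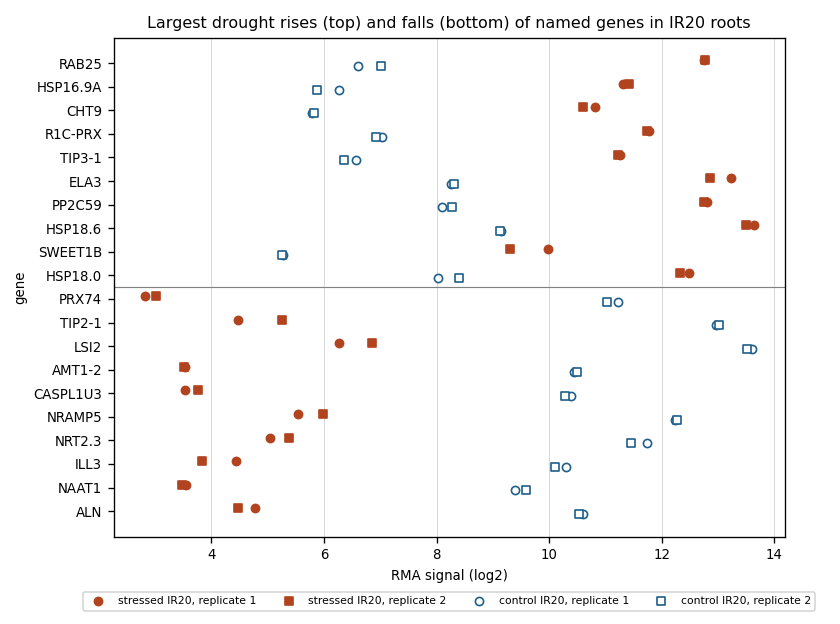
RMA signal (log2, horizontal axis) of the 10 named genes with the largest rises and the 10 with the largest falls, with filled symbols for stressed and open symbols for control IR20 roots, circles for replicate 1 and squares for replicate 2. The 20 genes were chosen among those whose stressed and control arrays stand apart.

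Genes that protect drying cells led the named rises. RAB25, a dehydrin-type protein, had 12.76 and 12.77 in stressed roots and 6.60 and 7.01 in control roots (5.96 ± 0.14 SE, adjusted p = 1.13e-07). EMP1, an LEA protein first known from drying embryos, had 12.11 and 12.40 in stressed roots and 8.36 and 8.52 in control roots (3.81 ± 0.22 SE). R1C-PRX, a 1-Cys peroxiredoxin also typical of seeds, had 11.78 and 11.73 in stressed roots and 7.03 and 6.92 in control roots (4.78 ± 0.10 SE). In all 3 both stressed arrays were high, both control arrays were low and the groups did not overlap. The dehydrin RAB16B had 14.84 and 14.81 in stressed roots and 12.29 and 12.38 in control roots (2.49), RAB16C had 14.57 and 14.33 in stressed and 11.95 and 11.77 in control roots (2.59), and RAB16D had 14.80 and 14.68 in stressed and 13.40 and 13.31 in control roots (1.39). All 3 rose. RAB21 had 15.28 and 15.25 in stressed roots, the highest gene signals of those arrays, and 13.92 and 13.86 in control roots (1.37). DHN1 was the member that did not pass (−0.15). Of the 8 LEA and dehydrin genes 7 rose, 87.5% against 26.5% of all named genes, with a median of 1.94 against −0.11 over the named genes. The median was 1.98 without stressed replicate 2. With spike-in scaling 5 of the 8 rose, with a median of 1.33.

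The responses of 6 of those 8 were lower in IR20 than in Nootripathu by the test of the difference, and 6 differences passed also with spike-in scaling. RAB16C rose by 2.59 ± 0.12 SE in IR20 and by 5.05 ± 0.12 SE in Nootripathu (difference −2.46 ± 0.17 SE, adjusted p = 7.72e-05). EMP1 rose by 3.81 in IR20 and 5.52 in Nootripathu. It had 11.87 and 11.92 in stressed Nootripathu roots, against 12.11 and 12.40 in stressed IR20 roots. Its control signals were 6.73 and 6.01 in Nootripathu and 8.36 and 8.52 in IR20. A lower response is thus a smaller change, and for EMP1 the stressed signal was not lower in IR20. RAB25 stood at 5.96 in IR20 and 5.95 in Nootripathu, and its difference between the cultivars did not pass (adjusted p = 0.983).

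Small heat shock proteins and the ClpB disaggregases, which hold or rescue unfolded proteins, split into a rising and a falling set. Of 22 such genes 14 rose and 6 fell (median 1.19), with the same counts without stressed replicate 2. Without stressed replicate 1, 14 rose and 3 fell, and 9 rose and 6 fell with spike-in scaling. HSP16.9A had 11.31 and 11.42 in stressed roots and 6.26 and 5.88 in control roots (5.29 ± 0.14 SE), and HSP18.0 had 12.48 and 12.33 in stressed and 8.03 and 8.40 in control roots (4.19, or 1.75 over its 3 probe sets). HSP18.8 went the other way, with 9.29 and 9.50 in stressed roots and 12.79 and 12.80 in control roots (−3.40 ± 0.16 SE). HSP24.1 had 9.74 and 9.83 in stressed roots and 11.56 and 11.67 in control roots. The groups did not overlap for any of these 4 genes. HSP18.6 and HSP18.8 rest on probe sets that may match related transcripts. Of the chaperones of the endoplasmic reticulum, 9 of 16 fell and 1 rose (56.2% and 6.25%, against 37.9% and 26.5% of all named genes), with a median of −0.39. Protein disulfide isomerase PDIL2-3 was at −1.48 and the stress sensor IRE1 at 0.42, or −0.19 with spike-in scaling.

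Heat stress factors, the regulators of chaperone genes, rose more than they fell. Of 20, 11 rose and 1 fell (55.0% and 5.0%, against 26.5% and 37.9% of all named genes), with a median of 0.93. With spike-in scaling 6 rose and 4 fell (median 0.32). HSFA6B had 11.27 and 11.31 in stressed roots and 7.64 and 7.82 in control roots (3.56 ± 0.10 SE). HSFB2B had 10 and 9.10 in stressed roots and 6.35 and 6.42 in control roots. Its stressed arrays spread more than its control arrays but both lay above them, and its difference of 3.17 was 1.49 over its 2 probe sets. HSFB2A had 11.22 and 11.24 in stressed roots and 9.44 and 9.59 in control roots. The response of 7 factors was higher in IR20 and that of 1 lower, or 5 and 1 with spike-in scaling, against 12.3% higher and 25.8% lower among all named genes. HSFB2A rose by 1.72 ± 0.10 SE in IR20 against a difference of −0.64 ± 0.10 SE in Nootripathu (adjusted p of the difference 5.07e-05), and HSFB2C by 1.87 in IR20 against 0.06 in Nootripathu. HSFC1A fell in IR20 (−1.14) and stood at 1.24 in Nootripathu.

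Genes of ABA signalling moved unevenly. Of 8 PP2C genes, whose products hold the pathway in check, 7 rose, while of 10 SAPK kinase genes 4 rose and 5 fell, where 26.5% of all named genes rose and 37.9% fell. PP2C59 had 12.81 and 12.76 in stressed roots and 8.09 and 8.28 in control roots (4.60 ± 0.11 SE). PP2C51 had 10.60 and 8.80 in stressed roots and 5.54 and 5.77 in control roots, a difference of 4.04 ± 0.48 SE that grew to 4.94 without stressed replicate 2. Both stressed arrays were above both control arrays in each gene, and replicate 2 of PP2C51 was the lower stressed array. SAPK1 and SAPK10 rose, each by 1.35, and SAPK7 and SAPK3 fell, at −1.12 and −1.08. The whole list of 19 receptors, phosphatases and kinases had 11 rises and 5 falls with a median of 0.52, or 3 rises and 6 falls with a median of −0.09 with spike-in scaling.

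A gene of ABA breakdown responded differently in the cultivars. ABA8OX2, an ABA 8′-hydroxylase, had 12.75 and 12.72 in stressed IR20 roots and 10.10 and 10.29 in control IR20 roots (2.54 ± 0.11 SE, adjusted p = 8.96e-07). In Nootripathu the difference was −1.62 ± 0.11 SE, and the difference between the cultivars, 4.16 ± 0.15 SE (adjusted p = 8.15e-06), was the most positive of any named gene that passed both tests. Its relative ABA8OX1 had 12.70 and 12.49 in stressed and 11.81 and 11.89 in control IR20 roots, a smaller rise (0.74) than the 1.40 of Nootripathu (adjusted p of the difference 0.021, or 0.668 with spike-in scaling). The probe set of ABA8OX2 may match related transcripts.

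Factors downstream of ABA and dehydration moved in both directions. DREB2A, which switches on dehydration genes, had 9.26 and 9.53 in stressed roots and 6.47 and 6.70 in control roots (2.81 ± 0.13 SE). HOX22, a homeodomain-leucine zipper factor, had 12.99 and 12.78 in stressed and 10.48 and 10.44 in control roots (2.42 ± 0.11 SE), and the clock factor CCA1 had 10.59 and 10.75 in stressed and 7.77 and 7.93 in control roots (2.81 ± 0.13 SE, or 1.70 over its 2 probe sets). In all 3 the stressed arrays were the high ones, without overlap. DREB1A, known from cold responses, had 11.62 and 11.55 in stressed roots and 12.55 and 12.68 in control roots and fell (−1.03). Of the 8 named NAC factors 6 fell and none rose (75.0% falling, against 37.9% of all named genes), with a median of −1.11. NAC45 was at −1.90 and NAC068 at −1.79. Of the 6 named WRKY factors 5 fell and none rose (median −0.98; without stressed replicate 2, 1 rose), WRKY24 by −2.10. Among 19 bZIP factors 6 rose and 8 fell (median 0.11, or −0.49 with spike-in scaling); BZIP52 had 5.21 and 6.0 in stressed roots and 9.98 and 10.04 in control roots.

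Enzymes of compatible solutes and of sugar use rose in some isoforms and fell in others. P5CS2, of proline synthesis, had 9.41 and 9.43 in stressed roots and 5.99 and 5.90 in control roots (3.47 ± 0.10 SE), and P5CS1 had 13.24 and 13.27 in stressed and 12.06 and 12.10 in control roots (1.18 ± 0.09 SE). Over its 4 probe sets P5CS2 averaged 1.22. With spike-in scaling P5CS2 was at 2.87, and P5CS1 (0.57) did not pass (adjusted p = 0.148, limma). Of 13 genes of proline, betaine and trehalose synthesis 6 rose and 4 fell, or 1 and 4 with spike-in scaling. Among the trehalose-6-phosphate phosphatases, which make the sugar trehalose, 3 rose and 4 fell. TPP4 had 6.28 and 6.64 in stressed roots and 8.84 and 8.92 in control roots, and TPP2 had 6.43 and 7.09 in stressed and 9.09 and 9.09 in control roots. Both fell in IR20 (−2.42 and −2.33) with Nootripathu at −0.15 and 0.43 (adjusted p of the differences 0.000181 and 0.000377). TPP7 and TPP1 rose by 0.72 and 0.63.

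Of 27 sucrose and starch enzymes 9 rose and 12 fell (33.3% and 44.4%, near the 26.5% and 37.9% of all named genes). Their median was 0.01, or −0.60 with spike-in scaling. SUS4, a sucrose synthase, had 13.73 and 13.41 in stressed roots and 9.35 and 9.55 in control roots (4.11 ± 0.14 SE). SSI, a soluble starch synthase, had 11 and 11 in stressed roots and 8.13 and 8.12 in control roots (2.87 ± 0.10 SE). CIN2, a cell wall invertase that splits sucrose outside the cell, had 4.46 and 4.93 in stressed roots and 9.77 and 9.83 in control roots (−5.11 ± 0.15 SE). Stressed roots were high for SUS4 and SSI and low for CIN2, with no overlap in any of the 3. CIN2 fell by less in Nootripathu, at −1.41 ± 0.15 SE (adjusted p of the difference 4.35e-05). The SWEET carriers, which let sugars out of cells, split likewise, with 7 of 12 rising and 4 falling. All sugar transporters listed had 9 rises and 5 falls, or 4 and 5 with spike-in scaling. SWEET1B had 9.98 and 9.31 in stressed roots and 5.27 and 5.25 in control roots, and SWEET15 had 6.70 and 6.83 in stressed roots and 3.70 and 3.59 in control roots. SWEET1A had 5.72 and 5.84 in stressed roots and 10.27 and 10.41 in control roots, and SWEET14 had 7.55 and 7.68 in stressed roots and 10.36 and 10.31 in control roots. SWEET1B and SWEET15 rose, and SWEET1A (−4.56, or −2.29 over its 2 probe sets) and SWEET14 fell. SWEET14 stood at 0.24 in Nootripathu (adjusted p of the difference 3.32e-05), and SWEET12 rose by 1.52 in IR20 against 4.96 in Nootripathu. The sucrose transporter genes SUT1 (1.68) and SUT4 (0.95) rose, and SUT5 (0.15) and SUT2M (0.15) did not pass.

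As deposited, antioxidant enzymes and thioredoxins rose more often than they fell, and glutaredoxins rose as often as they fell. With spike-in scaling falls outnumbered rises among antioxidant enzymes, and among thioredoxins and glutaredoxins together. Of 20 antioxidant enzymes 8 rose and 0 fell (median 0.12, or −0.49 with spike-in scaling). APX8, an ascorbate peroxidase, had 9.51 and 9.58 in stressed roots and 6.17 and 6.73 in control roots (3.09 ± 0.18 SE). Of the thioredoxins 9 of 15 rose and 1 fell, and of the glutaredoxins 7 of 18 rose and 7 fell. Together they had 17 rises and 8 falls, or 4 and 11 with spike-in scaling. NRX2, a nucleoredoxin, had 12.74 and 12.36 in stressed roots and 8.83 and 8.77 in control roots (3.75 ± 0.14 SE). Glutaredoxin GRXC7 had 8.85 and 8.94 in stressed roots and 11.19 and 11.14 in control roots (−2.26 ± 0.10 SE), against −0.16 in Nootripathu (adjusted p of the difference 7.47e-05). Of 7 metallothioneins, small metal-binding proteins, 5 fell and 1 rose (median −0.82). MT-I-2B fell in IR20 (−1.17) and stood at 0.69 in Nootripathu, or −0.21 there with spike-in scaling.

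Water channels fell broadly, and seed-type channels were the exception. Of the 25 aquaporin genes 20 fell, 80.0% against 37.9% of all named genes, and 2 rose (median −1.14). TIP2-1, of the vacuolar membrane, had 4.47 and 5.26 in stressed roots and 12.96 and 13.01 in control roots (−8.12 ± 0.24 SE). TIP3-1, a channel of seed storage vacuoles, had 11.25 and 11.23 in stressed roots and 6.56 and 6.36 in control roots (4.78 ± 0.11 SE). These 2 were the extremes, with no overlap in either gene, and both rest on probe sets that may match related transcripts. Of the 10 plasma membrane PIP genes 9 fell. PIP2-4 had 7.36 and 7.74 in stressed roots and 10.63 and 10.83 in control roots, and PIP2-5 had 5.74 and 5.92 in stressed roots and 8.93 and 8.95 in control roots. PIP2-5 fell by more in IR20 (−3.11) than in Nootripathu (−1.30, adjusted p of the difference 0.000284). The abundant PIP1-2, at 13.87 and 13.94 in stressed and 13.67 and 13.66 in control roots, did not pass (0.24). TIP3-1 rose by 4.78 in IR20 against 2.09 in Nootripathu (adjusted p of the difference 4.28e-05).

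Several genes of silicon and metal transport and the phosphate gene PHO1;2 were among the deep falls. The shares of the metal genes as a list were near those of all named genes. LSI2, the efflux carrier that passes silicon inwards, had 6.26 and 6.85 in stressed roots and 13.60 and 13.51 in control roots (−7.00 ± 0.18 SE). Its partner LSI1, the influx channel, fell by 0.78. NRAMP5, which takes up manganese and cadmium, had 5.54 and 5.99 in stressed roots and 12.23 and 12.28 in control roots (−6.49 ± 0.16 SE). NAAT1, of the synthesis of iron-binding phytosiderophores, had 3.55 and 3.47 in stressed roots and 9.39 and 9.59 in control roots. YSL15, which takes up the iron complex, had 7.38 and 7.21 in stressed roots and 12.34 and 12.34 in control roots (−5.05 ± 0.16 SE). In each of these genes the stressed arrays were low and did not overlap the control arrays. Of 49 iron and metal genes 20 fell and 10 rose (40.8% and 20.4%, against 37.9% and 26.5% of all named genes; median −0.13). The zinc carrier ZIP4 had 10.09 and 10.12 in stressed and 8.26 and 8.34 in control roots and rose (1.81). NRAMP1 fell in IR20 (−3.50 ± 0.10 SE) and rose in Nootripathu (0.79 ± 0.10 SE, but −0.10 with spike-in scaling), with an adjusted p of 7.41e-06 for the difference. PHO1;2, which loads phosphate into the xylem, had 9.23 and 9.31 in stressed roots and 12.73 and 12.79 in control roots (−3.49 ± 0.10 SE), against −0.04 in Nootripathu (adjusted p of the difference 9.2e-06). Over its 3 probe sets the IR20 difference averaged −1.07. Of 43 genes of phosphate, potassium and sulfate transport 22 fell and 7 rose (51.2% and 16.3%), with a median of −0.28. With spike-in scaling 25 of them fell and 0 rose.

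In nitrogen use the fall ran from uptake to assimilation, while a glutamine synthetase gene rose. Of 21 nitrogen genes 14 fell, 66.7% against 37.9% of all named genes, and 5 rose (median −1.48). The ammonium carrier AMT1-2 had 3.53 and 3.52 in stressed roots and 10.45 and 10.49 in control roots, and the nitrate carrier NRT2.2 had 4.64 and 4.93 in stressed roots and 10.04 and 9.90 in control roots. NIA1, nitrate reductase, had 9.02 and 9.06 in stressed roots and 12.25 and 12.16 in control roots (−3.17 ± 0.10 SE). Both stressed arrays were low in all 3 genes, without overlap. GLN1-2, a cytosolic glutamine synthetase, had 7.98 and 8.25 in stressed roots and 13.22 and 13.34 in control roots (−5.17 ± 0.12 SE). GLN1-3, of the same enzyme, had 12.43 and 12.11 in stressed roots and 8.60 and 8.69 in control roots (3.62 ± 0.14 SE). Stressed arrays were thus low for GLN1-2 and high for GLN1-3. The response of 12 of the 21 was lower in IR20 than in Nootripathu (against 25.8% of all named genes) and that of 3 higher, or 7 and 3 with spike-in scaling. NIA1 stood at −0.41 in Nootripathu (adjusted p of the difference 2.14e-05), and averaged −1.48 over its 2 probe sets in IR20. GDH2, a glutamate dehydrogenase, was at 0.48 in IR20, with a sign that turned with spike-in scaling (−0.13) and over its 3 probe sets (−0.29), and stood at −1.84 in Nootripathu.

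In the route that recovers nitrogen from purines, genes of the same pathway moved in opposite directions as deposited. Of its 5 listed genes 2 rose and 3 fell, or 0 and 3 with spike-in scaling. ALN, allantoinase, had 4.77 and 4.48 in stressed IR20 roots and 10.60 and 10.53 in control IR20 roots (−5.94 ± 0.12 SE, adjusted p = 8.59e-08). The enzyme at the head of the route, XDH, had 13.03 and 13.00 in stressed roots and 11.90 and 11.93 in control roots (1.10 ± 0.09 SE), and UAH, at its end, had 12.66 and 12.66 in stressed roots and 11.34 and 11.39 in control roots (1.30 ± 0.10 SE). Both rose, while both stressed arrays were low for ALN. With spike-in scaling ALN was at −6.55, and XDH (0.49) and UAH (0.69) did not pass (adjusted p = 0.207 and 0.0814, limma). AAH, which follows ALN, had 8.59 and 6.62 in stressed roots and 9.63 and 9.33 in control roots, so its fall (−1.88) rested mostly on replicate 2 and was −0.89 without it. In Nootripathu ALN rose (1.42 ± 0.12 SE), and the difference between the cultivars, −7.36 ± 0.17 SE (adjusted p = 3.67e-06), was the most negative of the named genes.

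Genes of DNA replication and of dividing cells fell in IR20. Of 49 such genes 31 fell, 63.3% against 37.9% of all named genes, and 9 rose (median −0.96), with 32 falls and 8 rises without stressed replicate 2. MCM2 to MCM7 encode the 6 subunits of the helicase that opens the double helix, and all 6 fell. MCM4 had 3.68 and 4.66 in stressed roots and 8.13 and 8.17 in control roots (−3.98 ± 0.26 SE), and MCM3 had 4.09 and 5.10 in stressed roots and 8.36 and 8.19 in control roots (−3.68 ± 0.29 SE). The other four were lower by between −2.24 (MCM6) and −3.67 (MCM2). All 4 cyclin B genes, which drive entry into mitosis, fell. CYCB2-2 had 3.35 and 4.22 in stressed roots and 9.08 and 9.09 in control roots (−5.30 ± 0.25 SE), and the mitotic kinase CDKB2-1 had 4.65 and 5.01 in stressed roots and 8.91 and 8.93 in control roots (−4.09 ± 0.13 SE). The stressed arrays were low and did not overlap the control arrays in any of these genes. ORC4, of the origin recognition complex, had 9.26 and 9.57 in stressed roots and 7.91 and 8.03 in control roots and rose (1.44 ± 0.12 SE), while ORC1 fell (−3.20).

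The tubulins and the kinesins, which build and use the microtubules of dividing and elongating cells, fell with them. Of 47 tubulin, actin and kinesin genes 33 fell and 2 rose (median −0.74), and the counts were 35 and 2 without stressed replicate 2, and 32 and 4 without stressed replicate 1. Of the 8 beta tubulins 7 fell. TUBB8 had 5.86 and 6.20 in stressed roots and 10.77 and 10.71 in control roots (−4.71 ± 0.13 SE), and TUBB6 had 7.39 and 7.97 in stressed roots and 12.35 and 12.31 in control roots (−4.65 ± 0.17 SE). TUBB7 changed least among those that fell, at −0.52. Of the 32 kinesins 22 fell and 2 rose. KIN12C had 4.94 and 4.45 in stressed roots and 7.93 and 7.63 in control roots (−3.08 ± 0.17 SE), and KIN7F had 11.15 and 11.24 in stressed roots and 10.23 and 10.19 in control roots (0.99 ± 0.10 SE).

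The division and cytoskeleton genes responded differently in Nootripathu. Of the 49 division genes the response of 29 was lower in IR20 and that of 1 higher (against 25.8% and 12.3% of all named genes), and of the 47 cytoskeleton genes that of 34 was lower and of none higher. With spike-in scaling the counts were 20 lower and 0 higher, and 17 lower and 0 higher. Within Nootripathu, where 29.9% of all named genes rose and 27.2% fell, 19 of the division genes rose and 10 fell (median 0.14), and 16 of the cytoskeleton genes rose and 9 fell (median 0.07), but with spike-in scaling those medians turned to −0.76 and −0.82. MCM3 had a difference of −3.68 ± 0.29 SE in IR20 and 1.12 ± 0.29 SE in Nootripathu (adjusted p of the difference 0.000194). RPA32, of the complex that coats single-stranded DNA, had 4.84 and 4.95 in stressed and 8.62 and 8.60 in control IR20 roots (−3.71 ± 0.13 SE), against 1.19 ± 0.13 SE in Nootripathu (adjusted p of the difference 8.25e-06). The cultivars differed already in control roots. There RPA32 had 5.93 and 6.21 in Nootripathu, and MCM3 had 6.16 and 6.51, against 8.36 and 8.19 in IR20. CYCB2-2 (6.02 and 5.85) and TUBB8 (8.44 and 8.48) were also lower in control Nootripathu than in control IR20 roots. Of 26 ribosomal protein genes 13 fell in IR20 and none rose, and the response of 16 was lower in IR20, but of 0 with spike-in scaling.

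**Figure D3:**
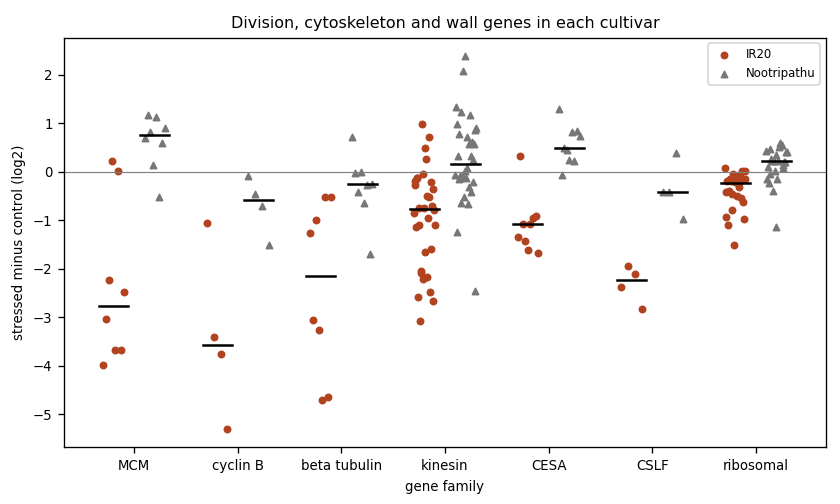
Stressed minus control signal (log2, vertical axis) of the genes of 7 families, with circles for IR20, triangles for Nootripathu and black bars for the median of each. The MCM median is −2.76 in IR20 and 0.75 in Nootripathu, and the CESA median is −1.09 in IR20 and 0.49 in Nootripathu.

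Genes of wall synthesis fell as well. Of 33 cellulose synthases and related genes 22 fell, 66.7% against 37.9% of all named genes, and 3 rose (median −0.96), or 22 and 1 without stressed replicate 2. Of the 9 CESA genes, the catalytic subunits of cellulose synthase, 8 fell and CESA2 rose. CESA4, CESA7 and CESA9 serve secondary walls: CESA4 had 10.41 and 10.60 in stressed roots and 11.86 and 11.85 in control roots (−1.35 ± 0.10 SE), and CESA7 had 9.94 and 10.12 in stressed roots and 11.65 and 11.74 in control roots (−1.67 ± 0.15 SE). CESA8 had 10.62 and 10.68 in stressed roots and 12.21 and 12.29 in control roots (−1.61 ± 0.10 SE). In each of them the stressed arrays were low, without overlap. All 4 CSLF genes, which make mixed-linkage glucan of grass walls, fell, and CSLF6 had 9.07 and 8.72 in stressed roots and 11.04 and 10.96 in control roots (−2.11 ± 0.13 SE). The response of 22 of the 33 genes was lower in IR20 than in Nootripathu and of none higher, or 13 and 0 with spike-in scaling. CESA4 rose in Nootripathu (1.30 ± 0.10 SE, adjusted p of the difference 3.37e-05), and CSLF6 stood at 0.38 there, or −0.51 with spike-in scaling. Over its 3 probe sets the fall of CSLF6 in IR20 averaged −0.58. BC1, a COBRA-like protein needed for stiff culms, had 6.88 and 6.89 in stressed and 9.69 and 9.67 in control IR20 roots (−2.80 ± 0.09 SE), and in Nootripathu its difference was 1.92 ± 0.09 SE (adjusted p of the difference 4.9e-06). BC1 had 8.58 and 8.63 in stressed and 6.63 and 6.72 in control Nootripathu roots, so the cultivars differed already in control roots.

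Expansins, which loosen walls, fell most in the beta class. Of 11 EXPB genes 9 fell (median −3.27), and of 14 EXPA genes 7 fell (median −0.96). EXPB3 had 5.51 and 5.91 in stressed roots and 11.54 and 11.73 in control roots (−5.92 ± 0.16 SE), and EXPB6 had 5.32 and 4.87 in stressed roots and 10.62 and 10.77 in control roots (−5.60 ± 0.19 SE). Both genes were low on both stressed arrays. Of 28 lignin and laccase genes 14 fell and 4 rose (50% and 14.3%, against 37.9% and 26.5% of all named genes). CAD8A, of the alcohol dehydrogenases that finish lignin units, had 5.91 and 5.96 in stressed roots and 11.69 and 11.98 in control roots (−5.89 ± 0.25 SE). HCT1, an earlier step, had 12.87 and 12.76 in stressed roots and 11.88 and 11.98 in control roots and rose (0.88 ± 0.10 SE), against −0.35 in Nootripathu (adjusted p of the difference 0.000771). The Casparian strip membrane protein family, whose founding member seals the endodermis, moved both ways, with 13 of 22 falling and 7 rising. CASPL1U3 had 3.53 and 3.76 in stressed roots and 10.39 and 10.28 in control roots, and CASPL3A1 had 11.71 and 11.87 in stressed roots and 9.40 and 9.45 in control roots.

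Among regulators of root patterning, 3 that fell are given here, chosen after their values were seen. The wider list of 53 HD-Zip and homeobox factors had 19 falls (35.8%, against 37.9% of all named genes) and 9 rises (median −0.05). WOX11, which starts crown roots, had 6.20 and 6.82 in stressed roots and 9.98 and 10.02 in control roots (−3.49 ± 0.19 SE). SHR1, which patterns the ground tissue, had 5.53 and 5.92 in stressed roots and 9.06 and 9.18 in control roots (−3.39 ± 0.15 SE), and its partner SCR1 had 4.24 and 4.82 in stressed roots and 6.18 and 6.41 in control roots (−1.76 ± 0.19 SE). The 3 genes had separate groups, and SHR1 fell by less in Nootripathu (−1.98, adjusted p of the difference 0.00303), though the difference did not pass with spike-in scaling (adjusted p = 0.137, limma).

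Hormone genes other than those of ABA moved by different shares. Of 66 auxin genes 30 fell and 13 rose (45.5% and 19.7%, near the 37.9% and 26.5% of all named genes; median −0.29). Of 11 ethylene genes 1 fell and 2 rose, of 11 gibberellin genes 5 fell and 1 rose, and of 9 brassinosteroid and strigolactone genes 4 fell and 2 rose. ILL3, related to enzymes that free auxin from its conjugates, had 4.43 and 3.83 in stressed roots and 10.30 and 10.11 in control roots (−6.08 ± 0.20 SE), against −1.09 ± 0.20 SE in Nootripathu (adjusted p of the difference 3.43e-05). In Nootripathu ILL3 had 4.19 and 4.25 in stressed and 5.16 and 5.45 in control roots. The cultivars thus differed in control roots, and Nootripathu was low already without drought. GH3-8, which conjugates auxin, had 12.31 and 12.58 in stressed roots and 10.52 and 10.52 in control roots and rose (1.93 ± 0.12 SE). Stressed arrays were thus low for ILL3 and high for GH3-8, without overlap. Among the Aux/IAA repressors 13 of 26 fell and 3 rose, whereas among the ARF factors they bind 8 of 17 rose and 4 fell. IAA31 had 5.92 and 6.11 in stressed roots and 10.71 and 10.66 in control roots (−4.67, or −2.39 over its 2 probe sets), and ARF16 had 9.68 and 9.84 in stressed roots and 7.93 and 7.88 in control roots. The response of 23 of the 66 auxin genes was lower in IR20 and of 3 higher (25.8% and 12.3% of all named genes), or 12 and 1 with spike-in scaling.

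Of 39 jasmonate genes 25 fell and 4 rose (64.1% and 10.3%, against 37.9% and 26.5% of all named genes; median −0.76), or 26 and 2 without stressed replicate 2. AOS4, allene oxide synthase, had 5.56 and 5.61 in stressed roots and 11.01 and 11.05 in control roots (−5.45 ± 0.11 SE), and OPR-1, an oxophytodienoate reductase, had 4.97 and 5.55 in stressed roots and 10.49 and 10.69 in control roots. Both stressed arrays were low in both genes. Of 32 cytokinin genes 18 fell and 6 rose (median −0.43), or 19 and 3 without stressed replicate 2. CPS1, the first committed enzyme of gibberellin synthesis, had 3.99 and 4.24 in stressed roots and 8.49 and 8.36 in control roots (−4.31 ± 0.20 SE). GA20OX3, a later step, had 7.66 and 8.01 in stressed roots and 10.27 and 10.41 in control roots (−2.51 ± 0.14 SE). D3, an F-box protein of strigolactone signalling, had 8.47 and 8.86 in stressed roots and 5.98 and 6.14 in control roots and rose (2.60 ± 0.14 SE), against 0.17 in Nootripathu (adjusted p of the difference 0.000173). BRL1, a brassinosteroid receptor relative, had 6.36 and 6.91 in stressed roots and 9.32 and 9.43 in control roots (−2.74 ± 0.18 SE).

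Some genes of chemical defence rose in IR20 although the jasmonate genes fell. CPS2, an enzyme of diterpenoid phytoalexin synthesis, had 11.55 and 11.60 in stressed roots and 7.51 and 7.78 in control roots (3.93 ± 0.23 SE). KSL10, a diterpene synthase that follows it, had 7.65 and 7.62 in stressed roots and 4.49 and 4.33 in control roots (3.23 ± 0.15 SE), and KSL7 had 10.62 and 10.52 in stressed roots and 7.16 and 7.52 in control roots (3.23 ± 0.14 SE). In all 3 both stressed arrays exceeded both control arrays. Momilactone genes went the other way, with CYP99A2 at −1.58 and MAS, momilactone synthase, at −1.10. Of the 15 phytoalexin genes 7 rose and 4 fell, with a median of 0.32 that became −0.29 with spike-in scaling. CPS2 stood at 0.03 ± 0.23 SE in Nootripathu (adjusted p of the difference 0.000184) and KSL10 at 0.41 ± 0.15 SE (adjusted p of the difference 0.000103).

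Chitinases, which attack fungal walls, and pathogenesis-related genes numbered 12, of which 7 rose and 3 fell (58.3% and 25.0%). Their median was 0.45, or −0.16 with spike-in scaling. LOC4338719, whose RefSeq synonyms hold both Cht1 and Cht9 and which is called CHT9 here, had 10.82 and 10.61 in stressed roots and 5.78 and 5.83 in control roots (4.92 ± 0.13 SE). PBZ1, a pathogenesis-related protein, had 13.83 and 13.84 in stressed roots and 12.35 and 12.42 in control roots (1.45 ± 0.13 SE), and in Nootripathu it was at −0.94 ± 0.13 SE (adjusted p of the difference 0.000125). The response of 7 of the 12 was higher in IR20 than in Nootripathu (against 12.3% of all named genes) and of none lower, with 6 and 0 under spike-in scaling. RBOHB, an oxidase that makes superoxide, had 11.92 and 11.82 in stressed roots and 10.34 and 10.41 in control roots (1.49 ± 0.10 SE), against −0.14 in Nootripathu (adjusted p of the difference 0.0002). ABCG32, a transporter of the full-size G class, had 10.58 and 10.56 in stressed roots and 6.81 and 6.89 in control roots (3.72 ± 0.10 SE), against −0.10 in Nootripathu (adjusted p of the difference 8.67e-06). Some genes of other defence families fell. PRX74, a class III peroxidase, had 2.81 and 3.02 in stressed roots, near the array floor, and 11.22 and 11.02 in control roots. The other of the 2 class III peroxidases listed did not pass (−0.27). Of 9 germin-like genes 5 fell and 2 rose (55.6% and 22.2%, against 37.9% and 26.5% of all named genes). Germin-like GLP2 had 6.31 and 6.90 in stressed roots and 12.42 and 12.48 in control roots (−5.84 ± 0.19 SE).

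**Figure D4:**
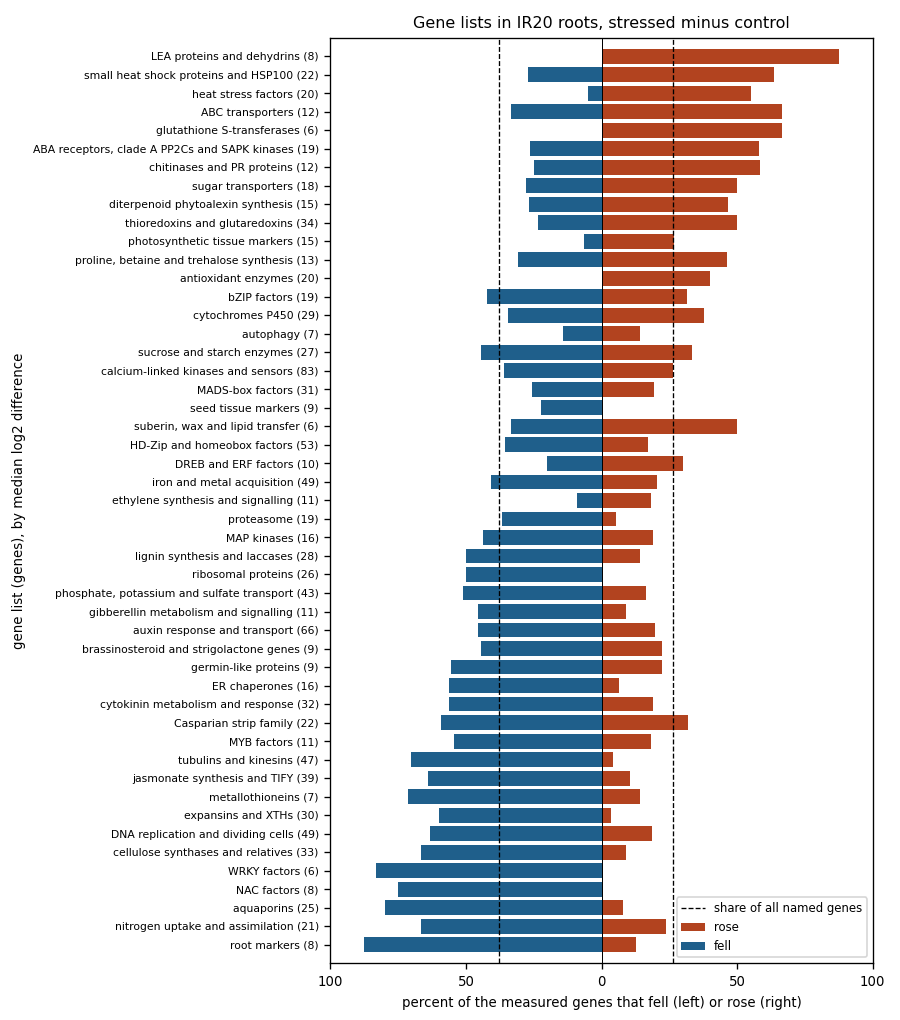
Share of the measured genes of each list that fell (left, blue) or rose (right, red) in stressed against control IR20 roots, in percent, for lists of at least 6 genes ordered by their median log2 difference, with dashed lines at the shares of all named genes (37.9% fell and 26.5% rose). LEA proteins and dehydrins lie at the top, with 87.5% rising, and root markers at the bottom, with 87.5% falling.

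Across all probe sets the drought effect was higher in IR20 than in Nootripathu for 5145 (8.99%) and lower for 6059 (10.6%), and at 2-fold or more for 1701 (2.97%) and 3441 (6.01%). These counts moved with single arrays: the higher ones were 2876 without IR20 control replicate 2, 2625 and 2558 without Nootripathu control replicates 1 and 2, and 2844 and 3011 without Nootripathu stressed replicates 1 and 2, and the lower ones 3951 without Nootripathu control replicate 2. With spike-in scaling they were 1587 higher and 1641 lower. Beside the genes already given, PP2C61, a protein phosphatase, had 8.31 and 8.40 in stressed and 7.15 and 7.20 in control IR20 roots (1.19 ± 0.10 SE), against −2.32 ± 0.10 SE in Nootripathu (adjusted p of the difference 1.24e-05). IRL2, a leucine-rich repeat protein, had 6.34 and 6.44 in stressed and 5.88 and 6.05 in control IR20 roots (0.43 ± 0.11 SE, or −0.18 with spike-in scaling), against −3.04 ± 0.11 SE in Nootripathu. The nitrate carrier NRT2.3 had 5.04 and 5.38 in stressed and 11.73 and 11.45 in control IR20 roots (−6.38 ± 0.15 SE), against −0.23 ± 0.15 SE in Nootripathu (adjusted p of the difference 7.41e-06), on a probe set that may match related transcripts.

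**Figure D5:**
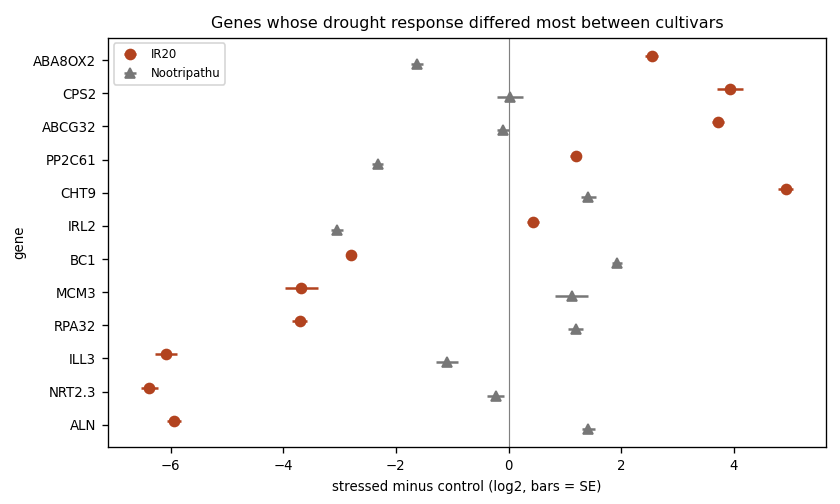
Stressed minus control signal (log2, horizontal axis, bars = SE, n = 2 arrays per group) of the 6 named genes with the most positive and the 6 with the most negative difference between IR20 (circles) and Nootripathu (triangles). ALN is at −5.94 in IR20 and 1.42 in Nootripathu, and ABA8OX2 at 2.54 in IR20 and −1.62 in Nootripathu.

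A few results rested on stressed replicate 2. RPT1A, a proteasome subunit gene, had 8.18 and 4.90 in stressed roots and 7.88 and 7.81 in control roots, so replicate 2 alone was low. Its difference of −1.30 did not pass and was 0.34 without that array. EXLA2, an expansin-like gene, had 9.80 and 8.04 in stressed roots and 10.21 and 10.03 in control roots (−1.20, not passing, or −0.33 without replicate 2). ZIP2, a zinc carrier, had 7.55 and 6.0 in stressed roots and 8.05 and 7.94 in control roots, and its fall of −1.22 was −0.45 without replicate 2. These 3, AAH and PP2C51 were the named genes that moved most. Of the 200 genes named by rule 198 passed, and 195 passed in the same direction without stressed replicate 2. Beside those marked above, NRT2.2, NRX2, ORC4, PDIL2-3, SWEET14, TPP7, TUBB7, EXLA2 and RPT1A rest on probe sets that may match related transcripts.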

How the data were processed

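Signals of roots were read from the deposited series table of an Affymetrix rice genome array. Its log2 values were made by the authors; the submitters' processing notes name RMA and Affymetrix Expression Console 3.0. RMA corrects the background and normalises by quantiles, so it evens out a change shared by most transcripts. Labelling started from 2 ug of total RNA, per the labels. Array medians lay between 5.29 and 5.35. For arrays the number per group limits the precision, and the raw scans were not used here.

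All 8 arrays were fitted with limma 3.58.1 in R 4.3.3, with 1 mean per group and 4 residual degrees of freedom, so the spread is shared by the 4 groups. The 123 control probe sets were left out. Benjamini-Hochberg adjustment ran over all 57258 probe sets, with a threshold of 0.05. An exact permutation test of 2 against 2 arrays cannot go below p = 0.333 and was not made. P-values measure the spread between these arrays only. The fit was tested on simulated data.

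A probe set was tied to a gene where the annotation gave exactly 1 (22436 probe sets), and each gene was represented by its probe set of highest mean signal. Names came from RefSeq. Only 82 genes had a name as symbol, so synonyms were used for names and for membership in the 57 gene lists, which widens the rule first written. A member of a list that another gene's name had brought in was removed by its name alone, in 2 cases after the fit was run. Lists, symbol families and members were chosen with earlier results of these data known. Genes were named by rule: the 10 largest rises and falls with separate groups, up to 2 of each per list, the 6 most positive and 6 most negative differences between cultivars, the 5 that moved most without stressed replicate 2, and the 5 largest rises and falls without a name. Other list members named in the text were chosen after their values were seen. A list is given by counts and median beside those of all named genes. Alternatives were leaving out each array, the replicate number as a block, only the IR20 arrays, dropping the dimmest 40% of probe sets, a trended robust prior, array weights, median-centring, scaling to 12 probe sets of spike-in 3′ ends, dropping probe sets ending in _x_at or _s_at, which can match more than 1 transcript, and the mean of a gene's probe sets. Promoter motifs were not analysed here.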

Additional observations from a re-analysis of the deposited data

Results flagged for a closer look

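Of the named genes that passed both tests, 12 had the most different drought effect in the cultivars, by the test of the difference in limma (2 arrays per group). The effect in IR20 minus that in Nootripathu was 4.16 for ABA8OX2, 3.90 for CPS2, 3.82 for ABCG32, 3.50 for PP2C61, 3.49 for CHT9 and 3.47 for IRL2. It was −7.36 for ALN, −6.15 for NRT2.3, −4.99 for ILL3, −4.90 for RPA32, −4.80 for MCM3 and −4.72 for BC1. The effects had opposite signs in the cultivars for ABA8OX2, PP2C61, IRL2, ABCG32, ALN, RPA32, MCM3 and BC1, of which ABCG32 was close to 0 in Nootripathu (−0.10). In all 12 both stressed IR20 arrays lay on the same side of both IR20 control arrays, as in every probe set that passed in IR20. With spike-in scaling IRL2 turned to −0.18 in IR20. ILL3 was low already in control Nootripathu roots (5.16 and 5.45). Control signals of ALN, RPA32, MCM3 and BC1 were also lower in Nootripathu than in IR20, and those of CHT9, PP2C61 and IRL2 were higher. The 12 were chosen for the size of this difference.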

How the results depend on the processing

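With the replicate number as a block, 12051 probe sets rose and 9827 fell in IR20. The drought effect was then higher in IR20 than in Nootripathu for 5101 and lower for 6150. All 200 named genes kept direction and side of the threshold. The correlations of same-numbered arrays' deviations ran from −0.01 to 0.207, the highest being that of stressed with control IR20 roots. With 2 arrays per group they cannot settle whether the numbers pair the arrays. Leaving out 1 array at a time gave 8352 to 12370 rises and 7881 to 10020 falls in IR20, and 2558 to 6531 higher and 3951 to 7622 lower effects against Nootripathu. Fewer arrays give fewer residual degrees of freedom. Scaling to the 3′ spike-in signal gave 2050 rises and 14721 falls in IR20, and 1587 higher and 1641 lower effects. The spike-in signals also differ between replicates, a spread that this scaling passes to every probe set. It turned the sign of IRE1 (−0.19), EXPB10 (−0.06), BC1L6 (−0.20), GER6 (−0.09), ERS2 (−0.13), ERS1 (−0.13), CCD7 (−0.10), ATG4B (−0.21), RPT1 (−0.09), PT11 (−0.05) and IRL2 (−0.18), and 28 further named genes lost their call under it. RPT1A, which had not passed at −1.30, was −2.94 without stressed replicate 1 and 0.34 without stressed replicate 2. The counts of rises and falls in IR20 stayed within 1.5 times under the other alternatives run. Of the 200 named genes, 7 lost their call with only the IR20 arrays, 12 and 7 without IR20 control replicates 1 and 2, and 24 have no value once probe sets that can match more than 1 transcript are dropped. The mean of all probe sets of a gene moved 31 of the 200. Falls that end near the array floor (lowest signals 2.55 on the stressed IR20 arrays) are bounded by background.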

Other observations

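Other gene groups of IR20 roots that the account above leaves out moved as follows. Of 83 calcium-linked kinases and sensors 22 rose and 30 fell (26.5% and 36.1%, against 26.5% and 37.9% of all named genes), or 4 and 38 with spike-in scaling. CIPK18, a kinase bound by calcineurin B-like proteins, had 4.48 and 4.63 in stressed roots and 8.66 and 8.55 in control roots, and CML1, a calmodulin-like protein, had 9.92 and 10.05 in stressed roots and 7.82 and 7.67 in control roots. Of 16 MAP kinases 3 rose and 7 fell (18.8% and 43.8%), and MPK17 had 5.03 and 4.92 in stressed roots and 6.98 and 7.07 in control roots. Of the 4 genes of ethanol fermentation 2 fell. ADH2, an alcohol dehydrogenase, had 10.25 and 10.51 in stressed roots and 12.54 and 12.63 in control roots, and PDC1, pyruvate decarboxylase, had a difference of −1.11 in IR20 and 1.99 in Nootripathu (adjusted p of the difference 4.5e-05, limma). Of 19 proteasome genes 7 fell (36.8%, near the 37.9% of all named genes) and 1 rose. The rise was of RPT1, with a sign that turned under spike-in scaling.

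Of 31 MADS-box factors 6 rose and 8 fell (19.4% and 25.8%, against 26.5% and 37.9% of all named genes), or 0 and 10 with spike-in scaling. MADS50, known as a promoter of flowering, had 6.17 and 6.20 in stressed roots and 8.89 and 9.01 in control roots. LTP-2, a lipid transfer protein, had 12.92 and 12.85 in stressed roots and 8.75 and 9.02 in control roots, while LTP110-A had 4.25 and 4.22 in stressed roots and 9.84 and 9.48 in control roots. LTP110-A stood at −5.43 in IR20 and −1.03 in Nootripathu (adjusted p of the difference 1.36e-05, limma). In Nootripathu it had 4.43 and 4.56 in stressed and 5.49 and 5.56 in control roots, so it was low there already without drought. Of 12 ABC transporters 8 rose and 4 fell, against 26.5% and 37.9% of all named genes, or 3 and 4 with spike-in scaling, and 2 of them, ABCG39 and ABCG42, have probe sets that passed in opposite directions.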
